A study of Mus musculus with 24 samples.

Results

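The genes described here are 9 interferon-stimulated genes of the mouse: Ifitm1, Ifitm2, Ifitm3, Bst2, Isg15, Oasl2, Stat2, Irf9 and Irf7. They were taken by gene symbol from the 55421 gene rows of each of 2 deposited tables, one for embryos and one for yolk sacs, and all 9 were present in both. The tables cover 24 messenger RNA libraries from whole embryos and whole yolk sacs of C57BL/6 mice at embryonic day 9.5. A Setd2-null line and a Setd2 catalytic dead (CD) line, whose label names a Setd2 protein without methyltransferase activity, were each sampled as wild type (WT), heterozygote (HE) and homozygote (HO). Each of the 6 groups of a tissue holds 2 libraries. The comparisons ask how the genes differ between homozygotes and WT of a line, between the lines and between the tissues. How the alleles were made, which sex the animals had and whether replicates came from separate litters was not given in the sources used here. P-values therefore reflect how far these libraries spread, and not a known spread between litters. In null HO of each tissue, replicate 1 held Y-linked transcripts and replicate 2 did not, so these replicates are not repeats of the same animal. In groups whose replicates do not differ in this way the spread may be technical.

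Type I interferon binds the receptor pair IFNAR1 and IFNAR2, which activates the kinases JAK1 and TYK2. STAT2 is phosphorylated and acts with IRF9 in ISGF3, a complex that binds the interferon-stimulated response element (ISRE) in the promoters of its target genes. Many such genes also have a level of their own without interferon: Ifitm1 and Ifitm3 are known from the mesoderm and germ cells of the early embryo. SETD2 adds the third methyl group to a lysine of histone H3 in transcribed gene bodies.

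The members have different roles. IFITM proteins sit in membranes and hinder the entry of viruses. BST2, or tetherin, holds budding virions at the cell surface, ISG15 is a ubiquitin-like protein that is joined to other proteins, and OASL2 belongs to the oligoadenylate synthetase family. STAT2 and IRF9 are the ISGF3 subunits among the members, and IRF7 drives transcription of type I interferon genes.

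On mm10, Ifitm2 (7:140954837-140955987, minus strand), Ifitm1 (7:140967221-140969825, plus strand) and Ifitm3 (7:141009586-141010770, minus strand) lie in a cluster on chromosome 7. Irf7 (7:141262706-141266481, minus strand) lies on the same chromosome, overlapped by Phrf1 on the opposite strand. Bst2 lies at 8:71534255-71537456 and Isg15 at 4:156199424-156200818, both on the minus strand. Oasl2 (5:114896936-114912234), Stat2 (10:128270559-128292849) and Irf9 (14:55603571-55610030, overlapped by Rnf31 on the same strand) are on the plus strand. With the strand setting of the counting not stated, reads in the short stretch that Irf7 and Phrf1 both cover cannot be told apart. Ifitm2 is overlapped on its own strand by the protein-coding gene Gm45717, and how reads of that overlap were counted is not stated. Exact 50-base stretches are shared by the Ifitm transcripts to at most 3.3%.

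Promoter windows of 300 bases (250 before to 50 after the start of transcription) were taken from RefSeq for GRCm38.p6 and matched for 9 of 9 members. An ISRE-type match was defined as GAAA, any 2 bases and again GAAA, on either strand, which 1131 of 32851 windows (3.44%) hold. Windows of 5 members hold it: 1 match for Ifitm2, 2 for Ifitm3, 2 overlapping for Bst2, 3 overlapping for Isg15 and 1, on the opposite strand, for Stat2. These letters are not in the windows of Ifitm1, Oasl2, Irf9 or Irf7. The matched stretches of these 5 members are shown so that their letters can be compared. Each is written along the gene's own strand with 10 flanking bases on each side and the match in capitals:
Ifitm2, chr7:140955988-140956017: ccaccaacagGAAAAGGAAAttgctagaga
Ifitm3, first match, chr7:141010723-141010752: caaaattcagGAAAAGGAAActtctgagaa
Ifitm3, second match, chr7:141010706-141010735: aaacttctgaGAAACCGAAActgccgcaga
Bst2, chr8:71537583-71537612: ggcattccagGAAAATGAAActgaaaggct
Isg15, chr4:156200877-156200906: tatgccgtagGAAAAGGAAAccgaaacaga
Stat2, chr10:128270266-128270295: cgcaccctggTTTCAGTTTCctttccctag
The same 10 letters, GAAAAGGAAA, stand in the windows of Ifitm2, Ifitm3 and Isg15. A match is a stretch of letters and not a shown binding site.

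Libraries held 23414255 to 27674831 counts in embryos and 16400137 to 22113787 in yolk sacs, and 8 of 9 members passed the filter on low counts in each tissue, all but Isg15. Levels across libraries are CPM, counts scaled to each library's adjusted total. Setd2, the targeted gene, was at 232 and 229 CPM in null WT embryos, 169 and 157 in heterozygotes and 93.2 and 104 in homozygotes, the order of the labels. In yolk sacs the libraries labelled null WT held 102 and 114 CPM and those labelled null HE 114 and 120, against 178 and 190 in CD WT, and those labelled null HO held 75.5 and 78.8. Setd2 in the libraries labelled null WT was thus below that of CD WT (adjusted p = 0.00895, edgeR) and goes against the label, so every null-line yolk sac direction below compares libraries by their labels alone. Setd2 was at 224 and 254 CPM in CD WT and 218 and 213 in CD HO embryos, which checks nothing, since the CD label names a loss of enzyme activity and not of transcript. Summed visceral endoderm markers reached 28211 to 47514 CPM in yolk sacs and 54.2 to 852 in embryos, which matches the tissue labels. The highest embryo value is CD WT replicate 2, which stands apart. Transcripts of the Y chromosome differed within 5 of the 12 pairs of embryo and yolk sac libraries with the same label, and between WT and HO of the CD line. In the null line they exceeded 10 CPM in no WT library and in both HE embryos. Of HO embryos, HO yolk sacs and HE yolk sacs of that line, replicate 1 alone passed that level. HE and WT embryos of the null line thus differed throughout in these transcripts, and HO and WT of that line in part.

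In WT embryos the IFITM genes were the highest members and in WT yolk sacs Bst2 was. Levels between genes were compared in the deposited FPKM, which divides by gene length and library total, over 4 WT libraries of a tissue, 2 of each line. In embryos Ifitm2 was at 34.7 ± 4.23 FPKM (SD, n = 4) and Ifitm1 at 33.3 ± 13.1, neighbours that overlap, followed by Ifitm3 at 10.4 ± 1.19. Irf9 at 2.59 ± 0.0907 and Stat2 at 2.30 ± 0.196 lay above Bst2 at 1.41 ± 0.464. The lowest were Isg15 at 0.183 ± 0.134, Irf7 at 0.112 ± 0.0165 and Oasl2 at 0.0667 ± 0.0245, of which the first pair do not differ beyond their spread.

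In WT yolk sacs Bst2 stood at 26.95 ± 3.08 FPKM, above Ifitm2 at 8.71 ± 2.73. Ifitm3 at 4.32 ± 2.33, Ifitm1 at 3.38 ± 1.05 and Stat2 at 3.33 ± 0.286 did not differ beyond their spread, and Irf9 was at 2.52 ± 0.125. Isg15 at 0.232 ± 0.210, Irf7 at 0.154 ± 0.0521 and Oasl2 at 0.0646 ± 0.0379 were again the lowest. The tetherin gene thus moved from sixth place to first between the tissues, while Isg15, Irf7 and Oasl2 kept the last places in both.

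**Figure D1:**
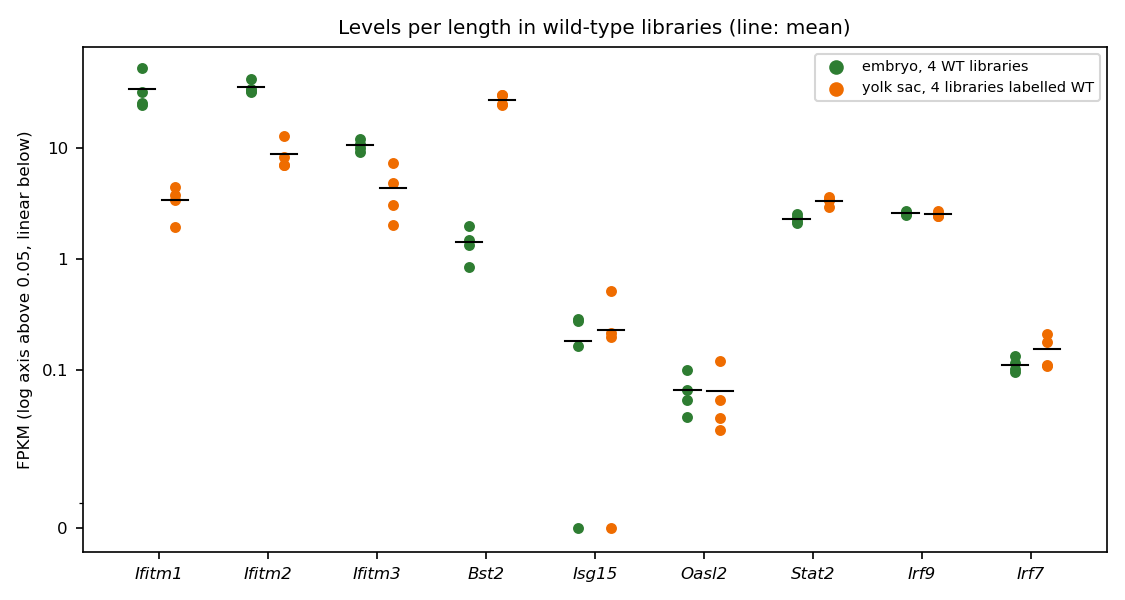
Deposited FPKM of the 9 members in the WT libraries of embryo and yolk sac, on an axis that is logarithmic above 0.05 and linear below; each point is a library and each short line a mean. Bst2 lies near 1.41 FPKM in embryos and 26.95 in yolk sacs, and the 3 IFITM genes lie lower in yolk sacs.

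Tested on counts over all 24 libraries (edgeR's quasi-likelihood test, Benjamini-Hochberg over all genes), 5 of 8 members differed between WT yolk sac and WT embryo, against 71.7% of all genes tested (34.2% higher, 37.4% lower). Bst2 was 24.2-fold higher in yolk sac (log2 difference 4.60, SE 0.174, adjusted p = 1.69e-14). Ifitm1 was lower by a log2 difference of -2.97 (SE 0.207, adjusted p = 1.59e-10), Ifitm2 by -1.69 (SE 0.173, adjusted p = 4.58e-08) and Ifitm3 by -1.09 (SE 0.205, adjusted p = 0.000102). Stat2 was higher by 0.85 (SE 0.140, adjusted p = 2.47e-05). The differences of Irf9 (0.28, adjusted p = 0.0762), Irf7 (0.76, adjusted p = 0.124) and Oasl2 (0.23, adjusted p = 0.75) did not pass the test, and with library totals as the only scaling those of Irf9 and Oasl2 turn to -0.038 and -0.085. Of 81 tested genes of a wider interferon pathway list 54 were higher and 8 lower, with a median log2 difference of 1.23 against -0.08 over all genes. That list was chosen with earlier results of these data known. Each tissue has a table of its own, so tissue and table cannot be told apart. In whole tissues fewer cells of a type and less RNA per cell cannot be told apart either.

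Null homozygous embryos had more Ifitm1, Ifitm3 and Bst2 than their WT. Of 8 members tested, 3 were higher and 0 lower, where 32.7% of all genes were called (16.2% higher, 16.5% lower), so a share of 3 in 8 lies near the background. Ifitm1 was at 26.01 and 27.2 CPM in WT and 39.9 and 43.2 CPM in HO embryos. Ifitm3 was at 6.14 and 6.65 CPM in WT and 10.4 and 9.55 CPM in HO. Both homozygotes lay above both WT libraries, and above both heterozygotes, for these genes. The log2 change was 0.64 for Ifitm1 (SE 0.197, adjusted p = 0.0253) and 0.65 for Ifitm3 (SE 0.132, adjusted p = 0.003, edgeR). The third IFITM gene, Ifitm2, overlapped between the groups, at 21.7 and 21 CPM in WT and 26.7 and 20.8 in HO (log2 change 0.16, SE 0.153, adjusted p = 0.474).

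Bst2 rests on few reads in embryos, 20 to 67 counts a library. It was at 1.20 and 0.760 CPM in null WT, 1.55 and 1.39 in HE and 1.502 and 2.14 in HO embryos, a log2 change of HO against WT of 0.89 (SE 0.312, adjusted p = 0.0456). The homozygotes lay above the WT libraries and overlapped the heterozygotes. With library totals as the only scaling the call was lost (adjusted p = 0.0501). It was also lost in DESeq2 (0.139), against heterozygotes as controls (0.476) and without WT replicate 2 or HO replicate 2. The call of Ifitm1 was lost against heterozygotes (adjusted p = 0.0518) and without WT replicate 1 (0.124), WT replicate 2 (0.0963) or HO replicate 2 (0.0952). The call of Ifitm3 held in each alternative, with the highest adjusted p at 0.0371.

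The transcription factors among the members did not pass the test in null embryos. Stat2 was at 14.97 and 12.7 CPM in WT and 10.01 and 13.7 in HO (log2 change -0.23, SE 0.148, adjusted p = 0.263). Irf9 was at 14.4 and 13.4 CPM in WT and 13.1 and 12.5 in HO (log2 change -0.12, SE 0.133, adjusted p = 0.531). Irf7 and Oasl2 lay under 1 CPM in every embryo, with 4 to 13 counts and 6 to 19 counts a library. Isg15 held 0 to 6 counts a library in embryos, 41 in all, a depth at which no difference between groups could be seen.

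**Figure D2:**
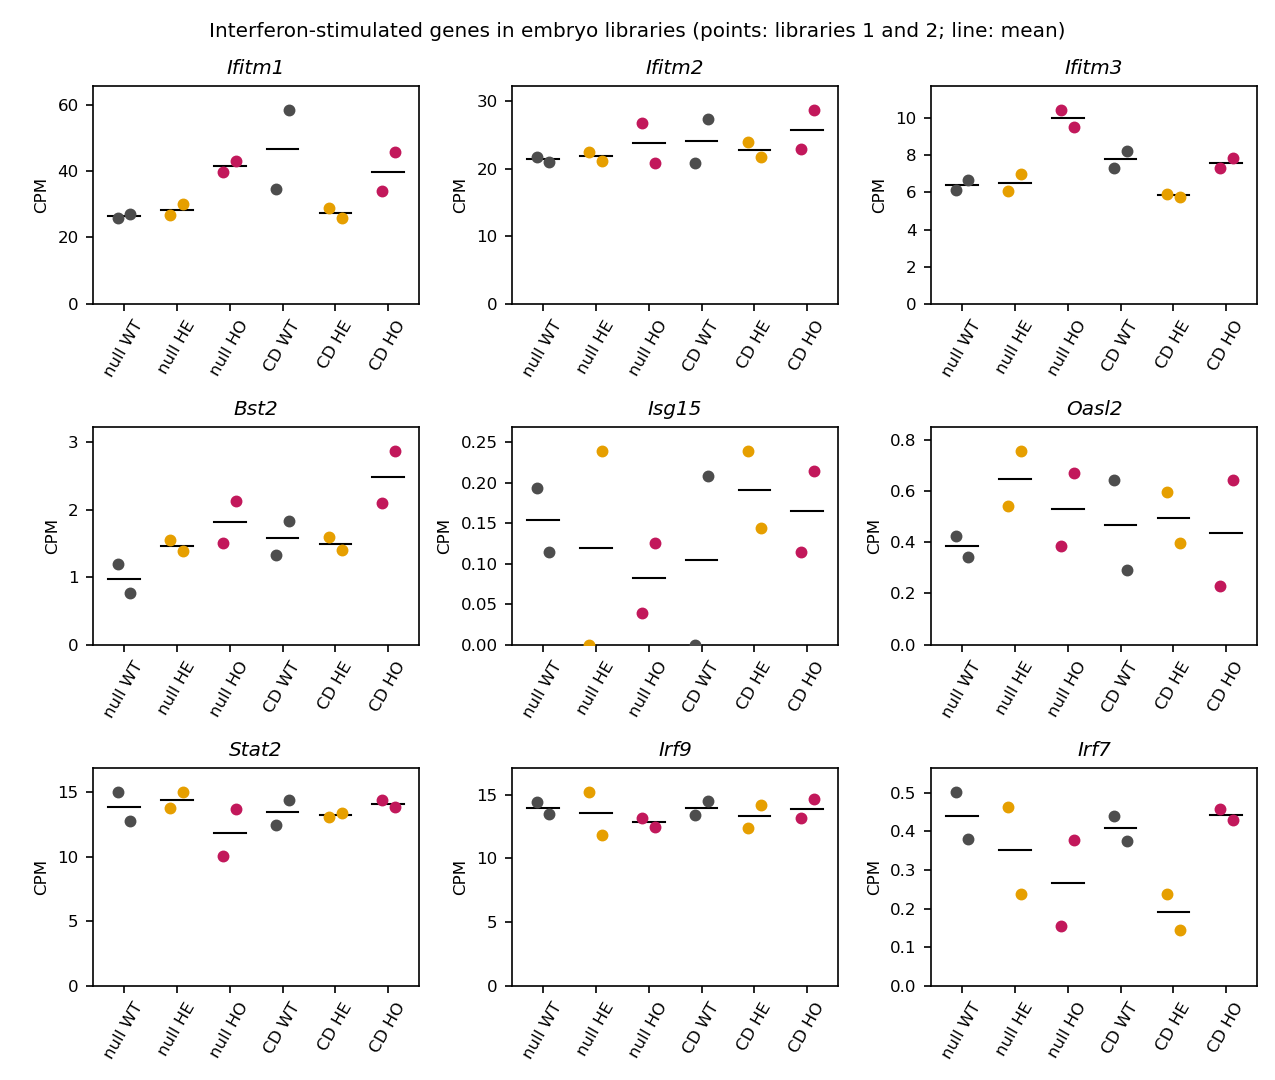
CPM of the members in the 12 embryo libraries, by line and genotype; each point is a library. Null HO points of Ifitm1 (39.9 and 43.2) and Ifitm3 (10.4 and 9.55) lie above the null WT and HE points, while CD WT replicate 2 has the highest Ifitm1 value, 58.4.

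The wider pathway list, grouped by role, was chosen with earlier results of these data known, so its counts are no independent test. It had 71 tested genes in embryos, of which 21 were higher and 6 lower in null HO. Of all genes 16.2% were higher and 16.5% lower (median log2 change 0.32 for the list against 0.01 over all genes). Among antiviral effectors 6 of 12 were higher and 0 lower. They include Trim25, a ubiquitin ligase that acts on the RNA sensor RIG-I, at 13.5 and 12.6 CPM in WT and 30.8 and 43.5 in HO (log2 change 1.504, adjusted p = 5.6e-05). Apobec3, a cytidine deaminase that restricts retroviruses, changed by 0.75 (adjusted p = 0.0158), and Samhd1, which degrades deoxynucleotides, by 0.38 (adjusted p = 0.00219). Of 6 interferon-induced GTPases 3 were higher, with Gbp7 at 1.01 (adjusted p = 0.025) and Irgm1 at 0.94 (adjusted p = 0.0293). The oligoadenylate synthetases Oas1b, Oas1c and Oas3 were higher and stayed below 1 CPM.

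Receptors and factors were called in both directions. Of 9 receptors and kinases Ifnar1 was higher (0.18, adjusted p = 0.0411) and Ifngr2, a subunit of the interferon gamma receptor, was lower (-0.36, adjusted p = 0.0317). Of 6 other transcription factors Irf1 was higher (0.65, adjusted p = 0.0165), and Irf3 (-0.67, adjusted p = 0.000331) and Irf5 (-0.93, adjusted p = 0.00807) were lower. Among 12 sensing genes Ddx58, which encodes RIG-I, was higher (0.79, adjusted p = 0.00382), as was the kinase gene Ikbke (0.50, adjusted p = 0.0459), and the adaptor gene Ticam1 was lower (-0.59, adjusted p = 0.0187). Of 7 genes for ISG15 conjugation or negative regulation the one called was Ube2l6, the conjugating enzyme of ISG15, which was lower (-1.39, adjusted p = 0.00832). Of 11 other interferon-induced genes 5 were higher, among them Parp12 (1.16, adjusted p = 0.000778), Pml (0.44, adjusted p = 0.00124) and Nmi (0.89, adjusted p = 0.0366). The 3 tested IFIT and further IFITM genes gave no call.

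Transcripts of interferons themselves were near or at 0. Ifna2, Ifna4, Ifnb1, Ifne, Ifng, Ifnl2 and Ifnl3 had 0 counts in all 24 libraries together, which allows up to 0.00548 CPM (3 counts of 547033853, counting error only). Ifna1 had 2 counts, and Ifnk, a keratinocyte interferon, had 69 counts in 20 libraries with at most 8 in one.

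Markers of other cells also differed in null HO embryos. The summed list of germ cell markers was at 142 to 169 CPM in HO and 81.6 to 85.6 in WT, with 4 of 6 tested higher and 1 lower. Kit, a receptor gene that other cells also express, was alone at 53.0 to 116 CPM over the 12 embryos and was higher (0.90, adjusted p = 7.41e-05), as were Prdm1, Tfap2c and Pou5f1. The germ cell genes Dnd1 (-0.81, adjusted p = 0.0445) and Nanos3 (-1.05, adjusted p = 0.296) had negative changes. Extraembryonic mesoderm markers were at 917 to 1331 CPM against 697 to 873, with 4 of 8 higher. Trophoblast and decidua markers were at 40.1 to 71.9 CPM against 28.2 to 28.5, with 6 of 7 higher and 1 lower. Primitive erythroid markers were at 95.0 to 1337 CPM against 2084 to 3072, with 5 of 10 lower. Endothelial markers were at 476 to 679 CPM against 506 to 550, with 2 of 12 higher and 3 lower, and mitochondrially encoded transcripts at 14942 to 15322 against 18526 to 18664, with 11 of 13 lower. Leukocyte and macrophage markers were at 9.86 to 12.5 CPM against 11.2 to 11.8. Of 6 tested, Fcer1g was higher (1.31, adjusted p = 0.033) and Cd68 lower (-0.70, adjusted p = 0.0475). Of the 15 on the list, C1qa and C1qc were at 0 in 11 of 12 embryo libraries, C1qb in 10, Cx3cr1 in 9, Adgre1 in 8, Tyrobp in 7 and Ptprc in 6, and the other 8 were at 0 in none. The part of these cells in the changes of Ifitm1, Ifitm3 and Bst2 was not tested. Several of these marker sums also differed in CD HO embryos. The germ cell list was at 139 to 145 CPM in CD HO and 93.9 to 120 in CD WT. Extraembryonic mesoderm markers were at 1136 to 1211 CPM against 626 to 1082, and trophoblast and decidua markers at 45.1 to 48.4 against 37.9 to 40.3. Mitochondrially encoded transcripts were at 13599 to 14351 CPM against 18817 to 18836. Primitive erythroid markers overlapped, at 617 to 1619 CPM against 1188 to 2315.

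In CD homozygous embryos 0 of 8 members passed the test (edgeR, with 1 at an unadjusted p under 0.05, and 0 in DESeq2), where 16.1% of all genes did. Ifitm1 was at 34.7 and 58.4 CPM in CD WT and 34 and 45.7 in CD HO (log2 change -0.23, SE 0.193, adjusted p = 0.473), with overlapping groups. Ifitm3 was at 7.34 and 8.24 CPM in WT and 7.34 and 7.84 in HO (log2 change -0.04, SE 0.133, adjusted p = 0.884). Bst2 was at 1.324 and 1.83 CPM in WT and 2.10 and 2.87 in HO, again with both homozygotes above both WT libraries, but its log2 change of 0.65 did not pass (SE 0.288, adjusted p = 0.147). Without CD WT replicate 1 the CD comparison called 1 member, Ifitm1, which was then at -0.56, and without CD WT replicate 2, the library that stands apart, Ifitm1 was at 0.19.

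The CD WT embryos themselves lay above the null WT embryos for Ifitm1. That difference between WT groups was 0.81 on the log2 scale (SE 0.197, adjusted p = 0.112), and 0 of 8 members were called, where 0.0312% of all genes were. The CD homozygotes at 34 and 45.7 CPM of Ifitm1 overlapped the null homozygotes at 39.9 and 43.2. The difference between the CD and null homozygous effects was -0.87 for Ifitm1 (SE 0.276, unadjusted p = 0.0082, adjusted p = 0.249) and -0.68 for Ifitm3 (SE 0.188, unadjusted p = 0.00331, adjusted p = 0.19; edgeR), again with 0 of 8 members called, where 0.0208% of all genes were. For Ifitm1 this difference passed without the filter on low counts (adjusted p = 2.11e-07, edgeR), as did the difference between the WT groups (1.2e-12). With 1 library left out the difference of effects ran from -1.198 to -0.44. The difference between the WT groups then ran from 0.38 to 1.14. An effect called in the null line and not in the CD line is thus not shown to differ between the lines, for any member, in the filtered fit of all 12 libraries.

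Of the wider list 6 genes were higher and 1 lower in CD HO embryos, where 6.92% of all genes were higher and 9.14% lower (median log2 change 0.02 against 0.0024 over all genes). Trim25 was at 16.2 and 20.1 CPM in CD WT and 28.3 and 34.5 in CD HO (log2 change 0.79, adjusted p = 0.00711). Parp12 changed by 1.05 (adjusted p = 0.00357), Pml by 0.29 (adjusted p = 0.0253) and Irf8, a factor of myeloid cells, by 1.10 (adjusted p = 0.0178). Irf3 was lower at -0.34 (adjusted p = 0.0319). Oas1c and Oas3 were the other genes that rose. With a term for Y-linked transcripts, which differ between CD WT and CD HO, 1 pathway gene was called, and Trim25, Parp12, Pml, Irf8 and Irf3 lost their calls.

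Across the 12 embryos Ifitm1 ranged from 25.8 to 58.4 CPM. The 2 tested genes with the most similar profile, by the root mean square difference of centred log2 CPM, were Hoxc8 (0.0867), a homeobox gene of the trunk, and T (0.0969), the brachyury factor of the primitive streak and tail bud mesoderm. Hoxc8 was at 24.7 and 26.2 CPM in null WT, 41.4 and 42.5 in null HO and 31.97 and 56.9 in CD WT. T was at 25.7 and 31.6 CPM in null WT, 43.6 and 51.4 in null HO and 36.8 and 61.3 in CD WT. In all 3 genes CD WT replicate 2 was the highest embryo library. Hoxc8 and T changed in null HO embryos by 0.72 and 0.73, and in CD HO by -0.15 and -0.13. Both were picked for likeness to Ifitm1 over these same libraries, so shared changes and a shared highest library follow from that choice. For Bst2 the most similar genes were Frat1 (0.169) and Map3k6 (0.179).

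**Figure D3:**
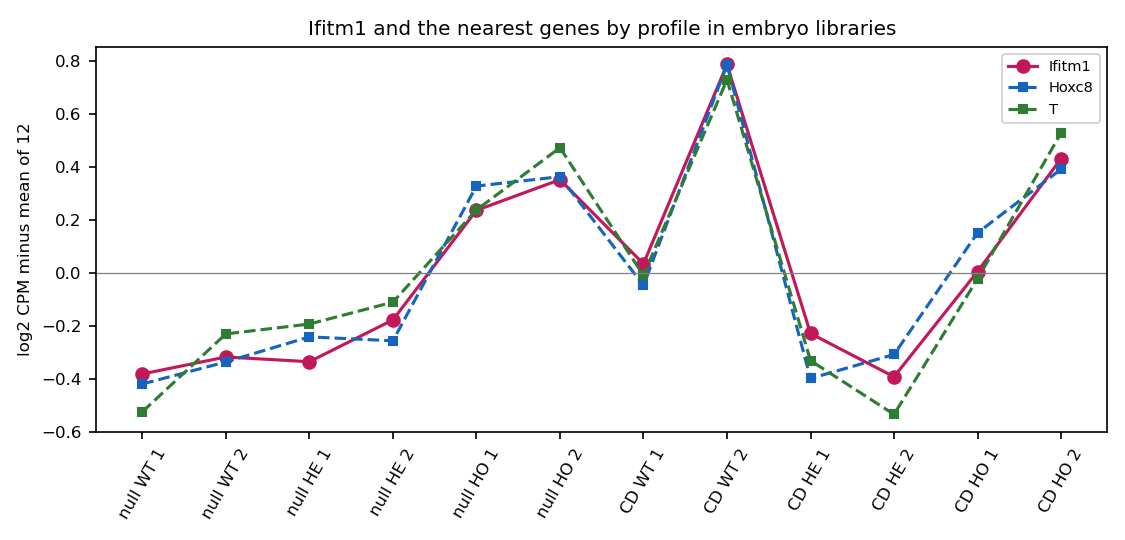
Log2 CPM of Ifitm1, Hoxc8 and T minus each gene's mean over the 12 embryo libraries, in the order of line, genotype and replicate; lines only join the points of a gene. All 3 genes are highest in CD WT replicate 2, at 58.4, 56.9 and 61.3 CPM. Hoxc8 and T were picked for likeness to Ifitm1 over these libraries.

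Heterozygotes gave 0 of 8 called members in each line and tissue. The background was 0.0104% of genes in null embryos, 0.0156% in CD embryos and 0% in the yolk sacs of both lines, and DESeq2 also called 0 members. At an unadjusted p under 0.05 there were 2 members in CD embryos and 0 in the other 3 comparisons. These 2 were Ifitm1, at 28.9 and 25.8 CPM in CD HE (log2 change -0.77, SE 0.196, adjusted p = 0.377), and Ifitm3, at 5.93 and 5.75 CPM (log2 change -0.42, SE 0.135, adjusted p = 0.446). Ifitm1 passed without the filter (adjusted p = 1.26e-11, edgeR). Its change ran from -1.095 to -0.34 when 1 library was left out, with CD WT at 34.7 and 58.4 CPM. Both CD heterozygotes lay below both CD WT libraries for these genes.

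In yolk sacs the libraries labelled null HO had less Bst2 and Ifitm3 than those labelled null WT. Of 8 members 0 were higher and 2 lower, where 6.27% of all genes were called (2.3% higher, 3.97% lower). Bst2, the highest member there, was at 26.7 and 26.5 CPM in WT, 28.4 and 20.5 in HE and 15.03 and 15.4 in HO (log2 change -0.80, SE 0.179, adjusted p = 0.0217). Ifitm3 was at 3.28 and 4.93 CPM in WT, 4.36 and 2.10 in HE and 1.59 and 1.13 in HO (log2 change -1.58, SE 0.426, adjusted p = 0.0478). For both genes the homozygotes lay below the other 4 libraries of the line. Each of these calls was lost when any 1 of the 4 compared libraries was left out, with values from -0.84 to -0.80 for Bst2 and from -1.86 to -1.27 for Ifitm3. With the replicate number as a block, or with a term for Y-linked transcripts, Ifitm3 also lost its call (adjusted p = 0.0569 and 0.0584), as it did against heterozygotes as controls (-1.235, adjusted p = 0.0976). Bst2 kept its call in these 3 fits, with the highest adjusted p at 0.0406. In CD WT yolk sacs Ifitm3 was at 1.39 and 2.14 CPM, which overlapped null HO and lay below both libraries labelled null WT. That difference between the WT groups was -1.21 on the log2 scale (SE 0.416, unadjusted p = 0.0129, adjusted p = 0.75, edgeR).

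Ifitm1 was at 4.14 and 4.78 CPM in WT and 1.40 and 1.83 in HO yolk sacs of the null line, groups that do not overlap. Its log2 change of -1.46 (SE 0.400) missed the threshold with an adjusted p of 0.0506, and passed it in DESeq2 (0.0234), without the filter on low counts (0.00336) and without CD HE replicate 2 (0.0324). Ifitm2 overlapped, at 4.54 and 8.24 CPM in WT and 3.27 and 5.39 in HO (log2 change -0.56, SE 0.321, adjusted p = 0.336).

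The remaining members did not follow the IFITM genes and Bst2 in the null-line yolk sacs. Stat2 was at 21.2 and 20.04 CPM in WT and 29.6 and 18.3 in HO (log2 change 0.22, SE 0.209, adjusted p = 0.598), and Irf9 was at 13.0 and 14.3 in WT and 17.3 and 15.1 in HO. Oasl2 had 5 and 15 counts in WT and 36 and 3 in HO (log2 change 0.87, SE 0.941, adjusted p = 0.641). Isg15 had 3 and 7 counts in WT and 11 and 0 in HO, and Irf7 had 16 and 8 in WT and 13 and 14 in HO. For Stat2, Oasl2 and Isg15 the homozygotes lie on both sides of the WT libraries.

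**Figure D4:**
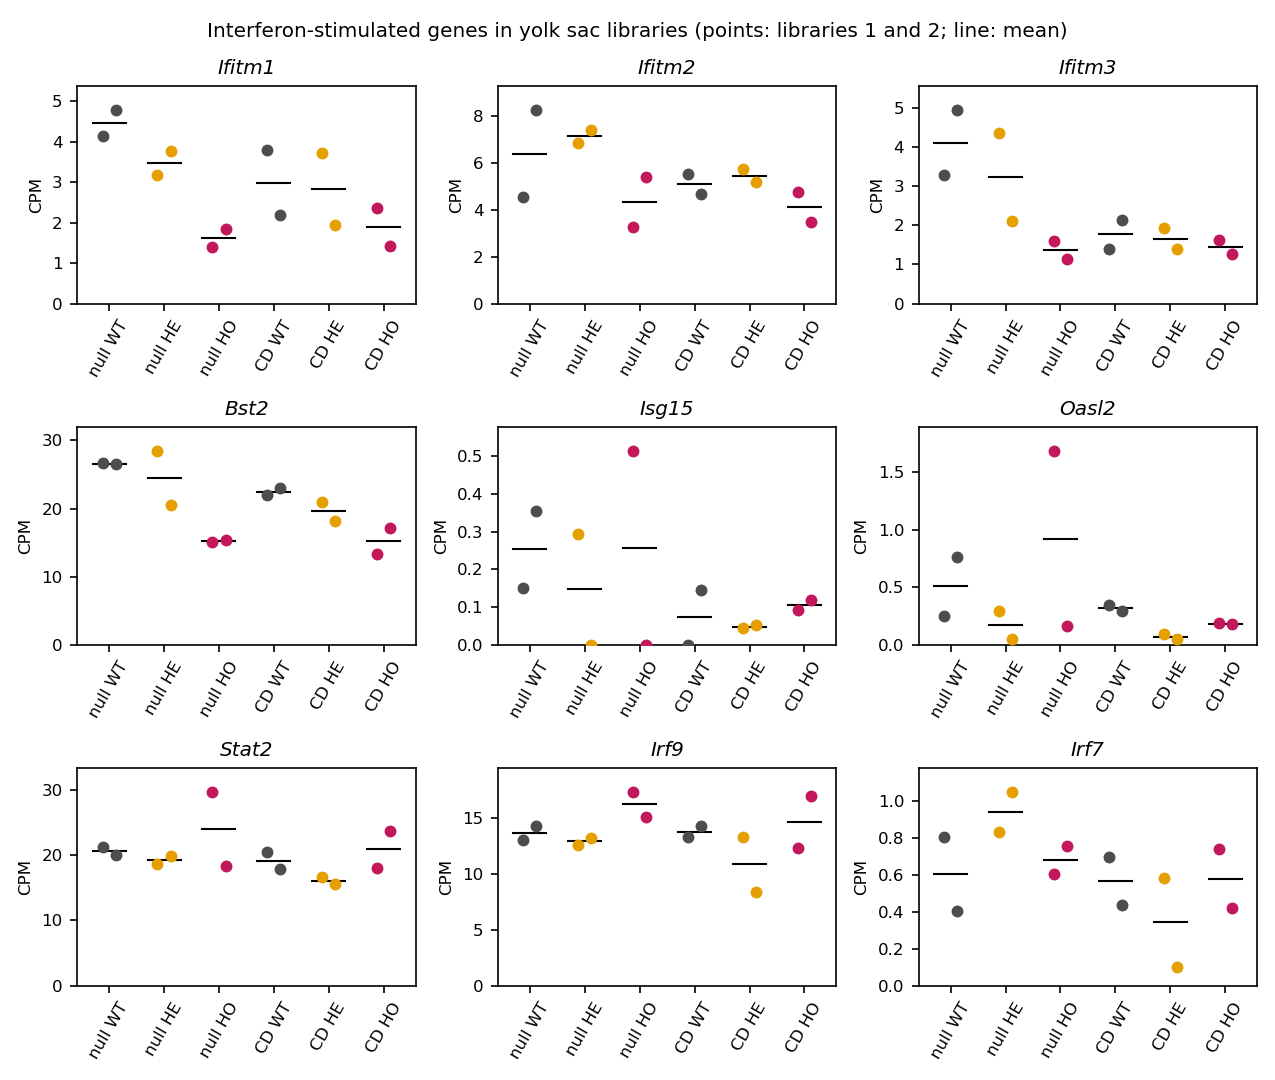
CPM of the members in the 12 yolk sac libraries, by line and genotype; each point is a library. Null HO points of Bst2 (15.03 and 15.4), Ifitm1 and Ifitm3 lie below those labelled null WT, and null HO replicate 1 is the highest point of Stat2 (29.6) and Irf9 (17.3).

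Replicate 1 of the yolk sacs labelled null HO was the highest of the 12 libraries for 4 of 9 members, Isg15, Oasl2, Stat2 and Irf9. It was also the highest for 23 of the 93 genes of the wider pathway list with a count in yolk sacs, and for 12.2% of all 17755 genes tested. Rsad2, an interferon-induced antiviral enzyme gene, was at 17.4 CPM in it and at most 8.87 in the others, and Ifih1, the gene of an RNA sensor, was at 5.88 against at most 4.27. Without this library the change of Stat2 was -0.19 and that of Oasl2 was -1.62, both reversed. Such a place is not particular to null HO replicate 1. Replicate 2 of the yolk sacs labelled null WT was the highest for 3 members, Ifitm1, Ifitm2 and Ifitm3. It was also the highest for at least 17 genes of the list and for 8.47% of all genes.

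Of 76 tested pathway genes in yolk sacs 4 were higher and 5 lower in libraries labelled null HO, where 2.3% of all genes were higher and 3.97% lower (median log2 change -0.09 against 0.02 over all genes). Apobec3 was at 8.63 and 8.65 CPM in WT and 38.9 and 26.9 in HO (log2 change 1.93, adjusted p = 0.00189). Cmpk2, a mitochondrial nucleotide kinase gene, was at 5.95 and 7.53 CPM in WT and 20.4 and 13.2 in HO (log2 change 1.322, adjusted p = 0.0226). Jak2 (0.45, adjusted p = 0.0266) and Pias1, a SUMO ligase gene (0.56, adjusted p = 0.0214), were the other higher genes. Those lower were the lambda interferon receptor gene Ifnlr1 (-1.42, adjusted p = 0.00605), its partner Il10rb, Ifngr2 (-0.68, adjusted p = 0.0304), Ifi35 (-1.86, adjusted p = 0.00889) and Lgals3bp (-1.04, adjusted p = 0.0173). Of the genes with values here, Apobec3 alone kept its call whichever library was left out, with changes from 1.62 to 2.15.

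Cell markers differed in the same libraries. Extraembryonic mesoderm markers summed to 1059 to 1095 CPM in null HO yolk sacs and 2754 to 4099 in those labelled WT, with 3 of 8 lower. Visceral endoderm markers were at 30181 to 33793 CPM against 41000 to 44020 (5 of 12 lower), endothelial markers at 545 to 679 against 709 to 860 (2 of 12 lower) and leukocyte markers at 130 to 131 against 139 to 198 (0 of 10 called). Trophoblast and decidua markers were at 48.5 to 58.9 CPM against 104 to 112 (1 of 6 lower), the germ cell list at 67.4 to 96.1 against 46.1 to 46.5 (1 of 5 higher) and mitochondrially encoded transcripts at 35127 to 44235 against 38017 to 38925 (0 of 13 called). The part of these cells in the lower Bst2 and Ifitm3 was not tested. The genes most like Ifitm1 across the 12 yolk sacs were Plvap (0.184), a gene of endothelial diaphragms, and Cd248 (0.194), a gene of stromal and perivascular cells. They changed in libraries labelled null HO by -1.32 and -1.06, which follows from their choice by likeness over these same libraries. The genes most like Bst2 were Gstm4 (0.112) and Snx21 (0.120), those most like Ifitm2 were Sdc2 (0.125) and Cdk14 (0.159), and those most like Ifitm3 were Cpq (0.222) and Clec1a (0.259).

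In CD homozygous yolk sacs 0 of 8 members passed the test (edgeR, with 1 at an unadjusted p under 0.05, and 0 in DESeq2), where 3.15% of all genes did. The member under 0.05 was Bst2, at 22.02 and 22.96 CPM in WT and 13.3 and 17.1 in HO, with both homozygotes below both WT libraries (log2 change -0.57, SE 0.179, unadjusted p = 0.0079, adjusted p = 0.102; edgeR). Ifitm1 was at 3.79 and 2.19 CPM in WT and 2.37 and 1.43 in HO (log2 change -0.64, SE 0.398, adjusted p = 0.403), and the groups overlapped. Ifitm3 was at 1.39 and 2.14 CPM in WT and 1.63 and 1.25 in HO (log2 change -0.29, SE 0.438, adjusted p = 0.763). The homozygous effects of the lines gave 0 called members when set against each other, where 0.0282% of all genes were called, as did the WT groups of the lines (0.0451%). Both comparisons take in the yolk sacs labelled null WT, whose Setd2 level goes against the label.

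Pathway genes in CD HO yolk sacs were 2 higher and 2 lower, where 1.27% of all genes were higher and 1.89% lower. Apobec3 was at 7.27 and 9.54 CPM in CD WT and 28.9 and 35.6 in CD HO (log2 change 1.94, adjusted p = 0.0036). Cmpk2 changed by 1.25 (adjusted p = 0.0433), Lgals3bp by -0.93 (adjusted p = 0.0411) and Ifnlr1 by -1.13 (adjusted p = 0.0246). Y-linked transcripts differ between CD WT and CD HO here too. With a term for them 1 pathway gene was called, and Cmpk2, Lgals3bp and Ifnlr1 lost their calls. Extraembryonic mesoderm markers summed to 972 to 995 CPM in CD HO and 1978 to 2086 in CD WT.

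Ifitm1, Ifitm3 and Bst2 went up in null HO embryos and lay lower in null HO yolk sacs, and that difference between the tissues was tested itself. In the null line 3 of 8 members were called for it, against 10.1% of all genes (4.28% with a higher and 5.83% with a lower effect in yolk sac). The effect in yolk sac minus that in embryo was -2.15 for Ifitm1 (SE 0.435, adjusted p = 0.00446), -2.26 for Ifitm3 (SE 0.417, adjusted p = 0.00246) and -1.73 for Bst2 (SE 0.345, adjusted p = 0.00405). The 3 calls held with the other scalings, without the filter, in DESeq2, with the replicate block, with the sex term and without any one library, while heterozygotes as controls were not run for this difference. The contrast rests in part on the yolk sacs labelled null WT.

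In the CD line the difference was called for 1 of 8 members, against 2.94% of all genes (1.79% higher, 1.15% lower). Bst2 had a difference of -1.23 (SE 0.325, adjusted p = 0.0478), with an embryo effect above 0 and a yolk sac effect below 0. This call was lost with another scaling (adjusted p = 0.051 with RLE size factors), with the replicate block (0.0568), with a term for Y-linked transcripts (0.266) and without any one of the 8 libraries. The differences of Ifitm1 (-0.41, SE 0.439, adjusted p = 0.684) and Ifitm3 (-0.25, SE 0.434, adjusted p = 0.826) did not pass.

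**Figure D5:**
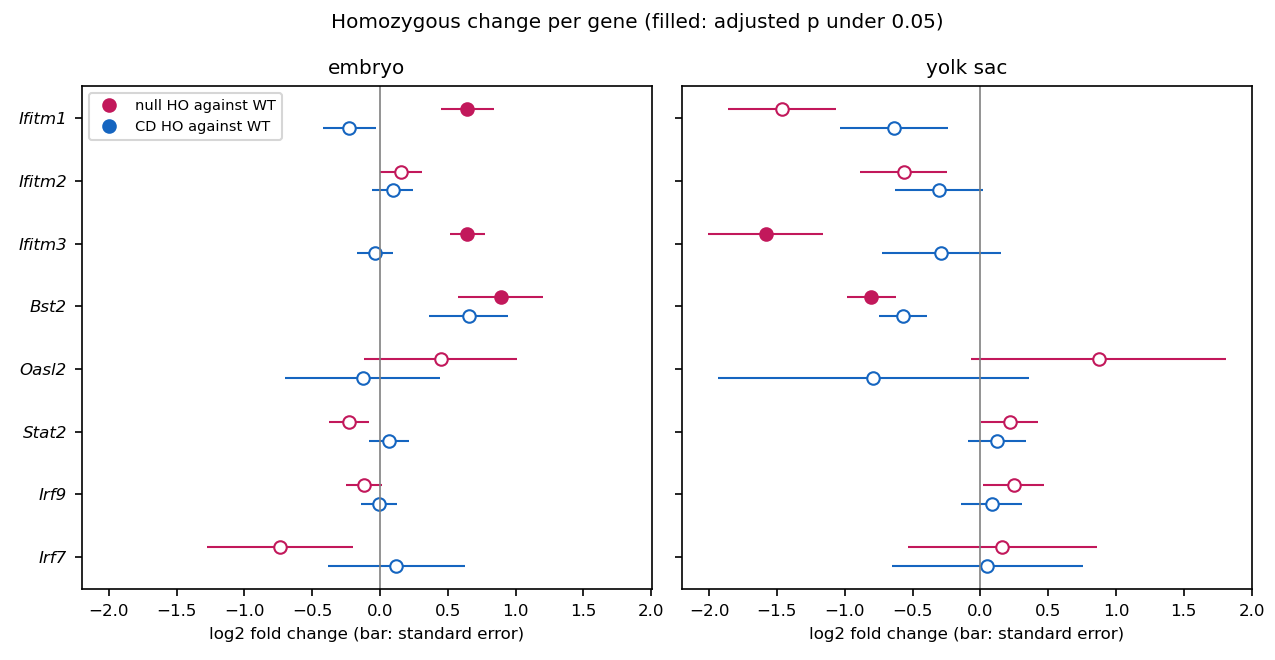
Log2 change of HO against WT for the 8 tested members, by line and tissue; points are estimates, filled where the adjusted p is under 0.05, and bars are standard errors. In the null line Ifitm1, Ifitm3 and Bst2 lie at 0.64, 0.65 and 0.89 in embryos and at -1.46, -1.58 and -0.80 in yolk sacs.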

How the data were processed

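Per the submitters' processing notes, reads were handled with fastp 0.22.0, HISAT2 2.2.1, featureCounts 2.0.1 and DESeq2 1.32.0 on mm10. The gene annotation version and strand setting were not given in the sources used here. The authors deposited, for each tissue, raw counts per gene and FPKM values per gene, and in these the FPKM is the count per length and library total. Counts were tested with edgeR 4.0.16 (R 4.3.3, limma 3.58.1): TMM scaling, filterByExpr (minimum count 10, minimum total 15), the quasi-likelihood F-test with 1 coefficient per group, and Benjamini-Hochberg adjustment over all genes tested (19215 in embryo, 17755 in yolk sac, 20543 jointly), with a threshold of 0.05. Each tissue was fitted on its 12 libraries, and tissues were compared in 1 fit of 24. CPM values are counts on TMM-adjusted totals. The test was run on simulated counts first. Figures were drawn with matplotlib 3.10.9 (Python 3.11.15).

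Alternatives were RLE size factors, library totals, no filter, DESeq2 1.42.0, a replicate block, a term for Y-linked transcripts, heterozygotes as controls and leaving out each library. Leaving out yolk sac CD HE replicate 2, which held Xist and Y-linked transcripts together, and embryo CD WT replicate 2 from comparisons they are not part of was chosen after seeing the data. Named genes are all members, up to 3 called genes per pathway role with the smallest p at a mean of 1 CPM or more in the tissue, and the 2 genes most like each member whose log2 CPM ranges over 1 or more. Pathway genes under 1 CPM, Il10rb, Rsad2 and Ifih1 were named after their values were seen. The members and lists were chosen with earlier results of these data known. How the authors counted reads that match more than 1 Ifitm gene is not stated. Results for some pathway genes are not reported here.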

Additional observations from a re-analysis of the deposited data

Results flagged for a closer look

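In the null line the homozygous effect differed between tissues for 3 members, by the test of the difference itself (edgeR, adjusted p in the report). The effect in yolk sac minus that in embryo was -2.15 for Ifitm1, -2.26 for Ifitm3 and -1.73 for Bst2, on the log2 scale. In the CD line it differed for Bst2, at -1.23, a call that did not hold when any 1 library was left out.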

How the results depend on the processing

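Of 49 called values of single genes, 449 of 601 alternatives kept the call, 152 lost it and 0 turned the direction. Of 23 values that were not called, 252 of 281 alternatives stayed so, 11 passed the threshold and 18 turned the direction. The 5 members called between WT tissues, and the 3 called for the tissue difference of the null line, were called under every alternative run for them, which did not include heterozygotes as controls. Against heterozygotes as controls, 1 member was called in null HO embryos and 1 in null HO yolk sacs. Over all genes 5826 and 1454 were called there. In CD HO embryos 15 pathway genes were called with these controls, against 7 in the main fit. The counts over all 19215 genes tested also rose, to 4252 against 3087. Ifitm1 and Ifitm3 of CD HO embryos were then at 0.54 and 0.38. Without the filter 1 member was called in each of CD HE embryos, the difference of homozygous effects in embryos and the WT groups of embryos, and 7 pathway genes were called in CD HO yolk sacs. With DESeq2 12 pathway genes were called in null HO embryos, 4 in CD HO embryos and 7 in CD HO yolk sacs. The counts over all genes were 5124, 2508 and 1036 there. With a term for Y-linked transcripts, 1 pathway gene was called in CD HO embryos, 5 in null HO yolk sacs and 1 in CD HO yolk sacs, and 1 member in null HO yolk sacs. With that term Ifitm3 of CD HO embryos was at 0.010, Oasl2 of null HO yolk sacs at -0.85 and Ifitm1 in the tissue difference of the CD line at 0.20. Library totals moved the median of all genes between WT tissues from -0.08 to -0.39, with Oasl2 at -0.085 and Irf9 at -0.038. The 1 call for the tissue difference of the CD line fell to 0 with RLE size factors, library totals, the replicate block and the sex term.

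The replicate numbers did not pair the samples: deviations of same-numbered libraries correlated from -0.114 to 0.0778 in embryos and from -0.122 to 0.175 in yolk sacs over 15 pairs of groups each. With the replicate block 1 member was called in null HO yolk sacs instead of 2. Leaving out 1 library gave 1 to 3 members and 10 to 28 pathway genes in null HO embryos, 0 to 1 and 1 to 8 in CD HO embryos, 0 to 3 and 1 to 9 in null HO yolk sacs, and 1 to 4 pathway genes in CD HO yolk sacs. It gave 0 to 1 members in CD HE embryos, in the difference of homozygous effects in embryos and between the WT groups of embryos, and 0 for the tissue difference of the CD line. A lone library is then assumed to vary like the other groups. Directions that turned had ranges of -0.039 to 0.31 for Ifitm2 in null HO embryos, -0.56 to 0.19 for Ifitm1 and -0.12 to 0.037 for Ifitm3 in CD HO embryos, -1.62 to 1.85 for Oasl2 and -0.19 to 0.50 for Stat2 in null HO yolk sacs, -0.56 to 0.048 for Ifitm3 in CD HO yolk sacs, -0.27 to 0.56 for Oasl2 between WT tissues, and -0.84 to 0.070 for Ifitm1 and -0.50 to 0.074 for Ifitm3 in the tissue difference of the CD line. The cause was not tested. Counts of all called genes were 6288 (3655 to 6775 without 1 library) for null HO embryos, 3087 (1272 to 2966, and 1112 with the sex term) for CD HO embryos, 1113 (165 to 1196) for null HO yolk sacs and 560 (66 to 1074) for CD HO yolk sacs. Without the filter the yolk sac counts were 2055 and 1662, with the sex term 619 and 87, and with DESeq2 the CD count was 1036. Isg15 and the interferon genes are limited by depth.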

Other observations

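The IFITM genes and Irf7 lie within 311645 bases of chromosome 7, with 13 other protein-coding genes wholly inside that span, of which 11 were tested. Gm45717, which overlaps Ifitm2, is not among them. In null HO embryos 2 of the 11 were higher, Lmntd2 (log2 change 0.55) and Phrf1 (0.33), and 1 was lower, Ptdss2 (-0.29). Of all genes tested 16.2% were higher and 16.5% lower there, so these counts lie near the background. In the yolk sacs labelled null HO 1 was higher, Lrrc56 (1.69), and 0 were lower, against 2.3% and 3.97% of all genes. In the CD line 1 was higher and 1 lower in embryos, against 6.92% and 9.14% of all genes. In CD yolk sacs 0 of 11 were called, against 3.15% of all genes (edgeR). These genes were named after their values were seen.

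By the root mean square difference of centred log2 CPM over 12 libraries, Oasl2 in yolk sacs was nearest to Ifi204 (0.512), an interferon-inducible DNA sensor gene, and Serpini1 (0.577), a distance larger than for any other named pair. Irf9 was nearest to Hsdl1 (0.108) and Igf2r (0.121), and Irf7 to Cyp7b1 (0.294) and Gm6054 (0.325). In embryos Oasl2 was nearest to Gm7774 (0.263) and Gm11465 (0.280), and Irf7 to 4933413J09Rik (0.224) and Gm13372 (0.266).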
